A study of Homo sapiens with 16 samples.

Results

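CSF1, CSF2 and CSF3, the genes of the 3 classical colony-stimulating factors, were examined in 16 RNA-seq libraries of mesenchymal stem cells (MSCs). They are 3 of the 60649 rows of the deposited count table and were found by their Ensembl identifiers. CSF2 and CSF3 were chosen by their measured values, which were among those that differed most between cells exposed and not exposed to mitomycin C (MmC), and CSF1 was taken as the remaining factor of the family. Values under MmC are therefore given for these 3 genes as a description, without a test. All 3 genes were among the 19103 that passed the filter on low counts, CSF2 and CSF3 only through the MmC+ libraries.

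The cells were ASC52telo, a telomerase-immortalised line of adipose-derived MSCs that is labelled wild type, so every library comes from 1 line. The study asked how growth differentiation factor 11 (GDF11), a cytokine of the TGF-beta family, acts on the transcripts of young and senescent MSCs. Each of the 4 groups has 4 libraries, which the study calls biological replicates. The p-values below measure the spread between these libraries. MmC- cells are called young and MmC+ cells senescent. MmC-/GDF11- cells received neither agent. MmC-/GDF11+ cells received GDF11 at 10 ng/mL during 10 days. MmC+/GDF11- cells were exposed to MmC, an agent that alkylates DNA, at 1.5 µg/mL for 18 h and were then kept for 10 days. MmC+/GDF11+ cells received the same MmC exposure and then GDF11 at 10 ng/mL during the 10 days. The study describes pooling all libraries into 1 mixture for sequencing. The study counts batch effects of a technical kind among its limits, but no label used here ties them to single libraries, and their part in the values was not tested.

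Colony-stimulating factors are secreted glycoproteins that direct the survival, proliferation and differentiation of myeloid cells. CSF1 (M-CSF) maintains monocytes and macrophages through CSF1R, CSF2 (GM-CSF) acts on granulocytes, macrophages and dendritic cells through CSF2RA and CSF2RB, and CSF3 (G-CSF) drives neutrophil production through CSF3R. Stromal and mesenchymal cells usually transcribe CSF1 steadily, whereas CSF2 and CSF3 are induced by inflammatory signals and have short-lived transcripts with AU-rich elements.

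In GENCODE v44 on hg38, CSF1 (ENSG00000184371.14) lies on the plus strand at chr1:109910242-109930992, CSF2 (ENSG00000164400.6) on the plus strand at chr5:132073789-132076170 and CSF3 (ENSG00000108342.13) on the plus strand at chr17:40015361-40017813. No other annotated gene overlaps any of them, and 0.0% of their exonic words of 31 bases also occur on the alternate contigs of hg38. The values cover whole genes, exons and UTRs together, and do not separate transcript forms. The 250 bases before the CSF2 start (RefSeq, GRCh38.p14, chr5:132073539-132073788, plus strand) are printed because this window carries a pair of elements long described for CSF2. The first run of capitals is the CK-1 element and the second a match to the NF-kappaB motif on the other strand.

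CSF2: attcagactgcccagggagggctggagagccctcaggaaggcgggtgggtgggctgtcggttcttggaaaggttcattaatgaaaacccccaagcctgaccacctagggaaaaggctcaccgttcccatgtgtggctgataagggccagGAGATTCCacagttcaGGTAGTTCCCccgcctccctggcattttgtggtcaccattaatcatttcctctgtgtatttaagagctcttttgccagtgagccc

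The search covered both strands. The CK-1 letters GAGATTCC lay at 101 to 94 bases before the start and occur in 0.735% of 35093 windows of this length in the same table. The NF-kappaB pattern (GGG, any 5 bases, CC) matched at 85 to 76 bases before the start on the minus strand, and 54.4% of windows hold such a match. The NFAT core GGAAA had 3 matches and occurs in 55.7% of windows, and the TATA-like TATTTAA had 1 match, at 29 to 23 bases before the start, and occurs in 4.17%. The AP-1 letters TGANTCA and the C/EBP letters TTNNGNAA had 0 matches in this window and occur in 6.57% and 33.2% of windows. None of these motifs overlapped another. These matches describe letters in the reference and were not measured in the cells.

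Total counts were between 71275337 and 144204979 per library, so that 3 counts of a gene correspond to between 0.0205 and 0.0417 CPM (counts of a gene scaled to the library total, adjusted by the trimmed mean of M values, TMM). MSC surface markers were high in all libraries, with a sum over 7 genes between 5090 and 6700 CPM. Replicate 1 of both MmC+ groups stood apart from the other MmC+ replicates in many genes. It was the lowest library of both groups in 28.1% of the 19103 genes and the highest in 28.2%, whereas in the MmC- groups these shares were 16.7% and 16.1%. The means and fold changes of CSF1, CSF2 and CSF3 after MmC are therefore also given without it.

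CSF1, the macrophage factor, was the only one of the 3 that was abundant without MmC. It measured 174, 144, 149 and 183 CPM in the 4 young cultures without GDF11, 135, 160, 138 and 161 in MmC-/GDF11+, 407, 184, 186 and 217 in MmC+/GDF11- and 394, 190, 171 and 237 in MmC+/GDF11+, in the order of the replicate numbers. The MmC+ libraries all lay above the MmC- libraries of the same GDF11 arm, by a narrow margin in both, and replicate 1 was the highest of each MmC+ group. The group means were 163 ± 18.9 and 248 ± 107 CPM (SD, n = 4) without GDF11 and 149 ± 13.8 and 248 ± 101 with GDF11. The log2 fold change for MmC was 0.61 (standard error 0.264) without GDF11 and 0.74 (0.265) with GDF11. Without replicate 1 of every group it was 0.30 and 0.38, and the MmC+ means were then 195 ± 18.6 and 199 ± 34.5 CPM (n = 3). Leaving out replicate 1 of MmC+/GDF11- alone gave 0.28 for MmC without GDF11, and leaving out replicate 1 of MmC+/GDF11+ alone gave 0.43 for MmC with GDF11.

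CSF2, the granulocyte and macrophage factor, was at the limit of detection without MmC. The counts were 3, 7, 1 and 2 in MmC-/GDF11- and 3, 2, 1 and 2 in MmC-/GDF11+. In MmC+/GDF11- they were 404, 3136, 2737 and 2148, or 4.09, 36.5, 30.6 and 24.7 CPM. In MmC+/GDF11+ they were 272, 2914, 4986 and 1917, or 3.72, 29.6, 34 and 20.5 CPM. All MmC+ libraries were far above all MmC- libraries, and within both MmC+ groups replicate 1 was the lowest. The mean of the other 3 libraries was 7.48-fold that of replicate 1 without GDF11 and 7.54-fold with GDF11. The means were 0.036 ± 0.0267 and 24.0 ± 14.1 CPM without GDF11 and 0.0259 ± 0.012 and 22.0 ± 13.4 CPM with GDF11 (SD, n = 4). The log2 fold change for MmC was 9.30 (standard error 0.946) and 9.68 (0.996). Without replicate 1 of every group it was 9.68 and 10.32, and the MmC+ means were 30.6 ± 5.91 and 28.0 ± 6.91 CPM (n = 3). The 4 MmC-/GDF11+ libraries held 8 counts in all, so the ratio for MmC with GDF11 was 962 with a 95% counting interval from 488 to 2230.

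CSF3, the neutrophil factor, followed the same order of groups with a wider spread. The counts were 3, 1, 2 and 8 in MmC-/GDF11- and 0, 1, 0 and 0 in MmC-/GDF11+. In MmC+/GDF11- they were 62, 3306, 2710 and 1317, or 0.628, 38.5, 30.3 and 15.2 CPM. In MmC+/GDF11+ they were 43, 2573, 4299 and 1119, or 0.588, 26.2, 29.3 and 11.9 CPM. The MmC+ and MmC- libraries did not overlap, and replicate 1 was again the lowest of each MmC+ group, 44.6-fold below the mean of the others without GDF11 and 38.2-fold with GDF11. A count of 0 allows a level of up to 0.0417, 0.0383 and 0.0335 CPM in the 3 MmC-/GDF11+ libraries concerned. The means were 0.0382 ± 0.0285 and 21.1 ± 16.8 CPM without GDF11 and 0.00335 ± 0.00671 and 17.0 ± 13.3 CPM with GDF11. The log2 fold change for MmC without GDF11 was 9.02 (standard error 1.44), and 9.42 without replicate 1 of every group. The MmC+ means were then 28.0 ± 11.8 CPM without GDF11 and 22.5 ± 9.26 CPM with GDF11 (n = 3). With GDF11 the comparison rests on 1 count in the 4 MmC-/GDF11+ libraries, and the ratio was 6130 with a 95% counting interval from 1100 to 242000. These intervals cover counting error only.

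Within each GDF11 arm, all 3 genes were higher in the MmC+ than in the MmC- libraries without any overlap. Across the arms CSF1 did overlap, since MmC+/GDF11+ replicate 3, at 171 CPM, lay below replicates 1 and 4 of MmC-/GDF11-. Of all 19103 genes, 19.1% were higher without overlap for MmC without GDF11 and 20.2% for MmC with GDF11. These shares are background, since the MmC response chose CSF2 and CSF3, with CSF1 taken as the remaining factor of the family.

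**Figure D1:**
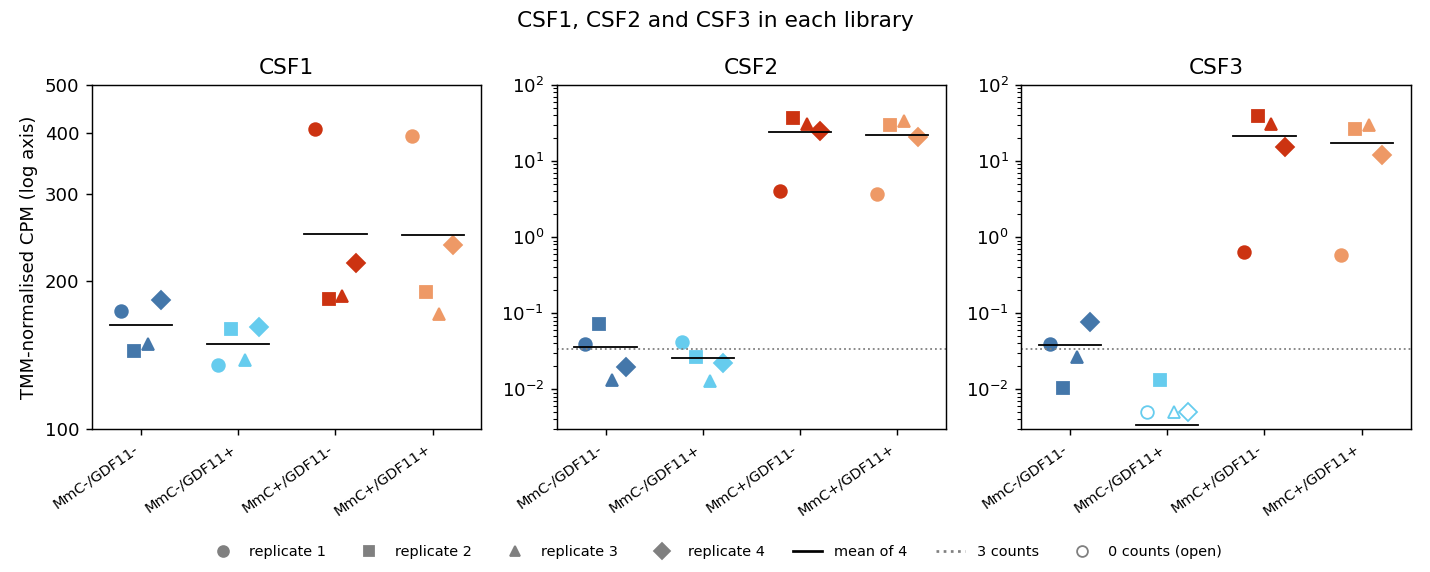
TMM-normalised CPM of CSF1, CSF2 and CSF3 (vertical log axes, which differ between CSF1 and the other two) in the 16 libraries, by group. Each marker is a library, with its shape for the replicate number, black lines are the means of 4 libraries, the dotted line marks 3 counts in a library of median depth, and open markers are libraries with 0 counts, drawn at the bottom because a log axis has no zero. In both MmC+ groups replicate 1 (circle) is the highest library for CSF1, at 407 and 394 CPM, and the lowest for CSF2 and CSF3.

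Per kilobase of exon the 3 factors were far apart in young cells and near each other in senescent cells. CSF1 had a mean level of 31 CPM per kilobase in MmC-/GDF11-, CSF2 0.0456 and CSF3 0.0172, so that CSF1 was 680-fold above CSF2. In MmC+/GDF11- the levels were 47.4, 30.4 and 9.52 CPM per kilobase, and CSF1 was 1.56-fold above CSF2 and 4.98-fold above CSF3. With GDF11 the corresponding ratio of CSF1 to CSF2 was 863 without MmC and 1.70 with MmC. Replicate 1 carried much of the distance between CSF1 and the other factors in senescent cells. Without it, a calculation added after the values were seen, CSF1 was 0.96-fold of CSF2 and 2.96-fold of CSF3 in MmC+/GDF11-, and 1.07-fold and 3.76-fold in MmC+/GDF11+. The group means had the order CSF1, CSF2, CSF3 in all 4 groups, but in MmC+/GDF11- without replicate 1 CSF2 (38.8 CPM per kilobase) stood above CSF1 (37.3). CSF2 was above CSF1 in 2 of the 4 libraries of each MmC+ group, so these neighbours in the order do not differ beyond their spread there. CSF3 was below CSF2 in 4 of 4 libraries of each MmC+ group. In MmC-/GDF11- it was below in 3 of 4 libraries, at 1 to 8 counts. Levels per kilobase were ranked among the 13967 protein-coding genes that passed the filter, where CSF2 and CSF3 entered only through the MmC+ libraries. CSF1 was above 91.2% of genes in MmC-/GDF11- and 94.6% in MmC+/GDF11-. CSF2 moved from above 8.0% to above 91.1% of genes, and CSF3 from above 3.67% to above 73.1%.

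Within the senescent cells CSF2 and CSF3 had the same order of replicates in each group, and CSF1 went the other way in replicate 1. In replicate 1 of both MmC+ groups CSF1 was 2.08-fold and 1.98-fold above the mean of the other replicates, while CSF2 and CSF3 were below it. The balance of CSF3 to CSF2 also differed between replicates. The log2 ratio of their levels per kilobase was -4.20, -1.42, -1.51 and -2.20 in MmC+/GDF11- and -4.16, -1.67, -1.71 and -2.27 in MmC+/GDF11+, in the order of the replicate numbers. Same-numbered libraries were close to each other and replicate 1 was the lowest of both groups. GDF11 did not shift this ratio beyond the spread, with a difference of -0.12, GDF11+ minus GDF11- (lower in 3 of 4 same-numbered pairs). An exact two-sided permutation test of 4 against 4 libraries gave p = 0.714, where the smallest possible value is 0.0286, and exchange within same-numbered pairs gave an exact permutation p of 0.25, where the smallest possible value is 0.125. In bulk RNA, fewer cells that make a transcript and less transcript per cell cannot be told apart.

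For GDF11, which played no role in the choice of the genes, no change of CSF1, CSF2 or CSF3 passed the test in young or in senescent MSCs. In edgeR's quasi-likelihood test, 0 of the 3 genes passed an adjusted p of 0.05 in either comparison or in the interaction of MmC and GDF11, and 0 of 3 had an unadjusted p under 0.05. The background was 0.0% of the 19103 genes called in each of these comparisons, while an unadjusted p under 0.05 was reached by 226 genes (1.18%) in young MSCs, 96 (0.503%) in senescent MSCs and 172 (0.9%) in the interaction. These p-values take no account of the deviations that same-numbered libraries share. With the replicate number as a block, edgeR called 0 of 3, and 0 of 3 had an unadjusted p under 0.05. Of all genes, the block put 551 under that limit in young MSCs, 145 in senescent MSCs and 296 in the interaction. limma-voom and DESeq2 also called 0 of the 3. In DESeq2 1 of the 3, CSF3 in young MSCs, had an unadjusted p of 0.0355.

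In senescent MSCs the mean of CSF1 was 248 CPM with and without GDF11, with a 95% interval of the log2 fold change from -0.56 to 0.56. The log2 fold change of CSF2 was -0.12 (95% interval -1.32 to 1.07), and that of CSF3 was -0.31 (-2.16 to 1.54), each with an adjusted p of 1.0. Same-numbered libraries deviated together, and a fit with the replicate number as a block narrowed these intervals to between -0.53 and 0.26 for CSF2 and between -0.82 and 0.25 for CSF3. CSF3 was lower with GDF11 in 4 of 4 same-numbered pairs, by log2 differences of -0.09, -0.56, -0.05 and -0.34, but neither fit called it. CSF2 was lower in 3 of 4 pairs and CSF1 in 2 of 4.

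In young MSCs the log2 fold change of CSF1 for GDF11 was -0.13 (95% interval -0.69 to 0.43). CSF2 had 8 counts in the 4 libraries with GDF11 and 13 in those without, a ratio of 0.692 (counting interval 0.249 to 1.80, which includes 1). CSF3 had 1 count with GDF11 and 14 without, a ratio of 0.0804 with a counting interval from 0.0019 to 0.528. Of the 14 counts, 8 were in replicate 4 of MmC-/GDF11-. The interval covers counting error only, and the fitted log2 fold change of -3.16 (95% interval -11.70 to 5.39, edgeR adjusted p = 1.0) covers the spread between libraries. With the replicate block it was -3.20 (-6.61 to 0.21, edgeR adjusted p = 1.0). The interaction was 0.13 for CSF1, 0.38 for CSF2 and 2.85 for CSF3 on the log2 scale, with edgeR adjusted p-values of 1.0.

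**Figure D2:**
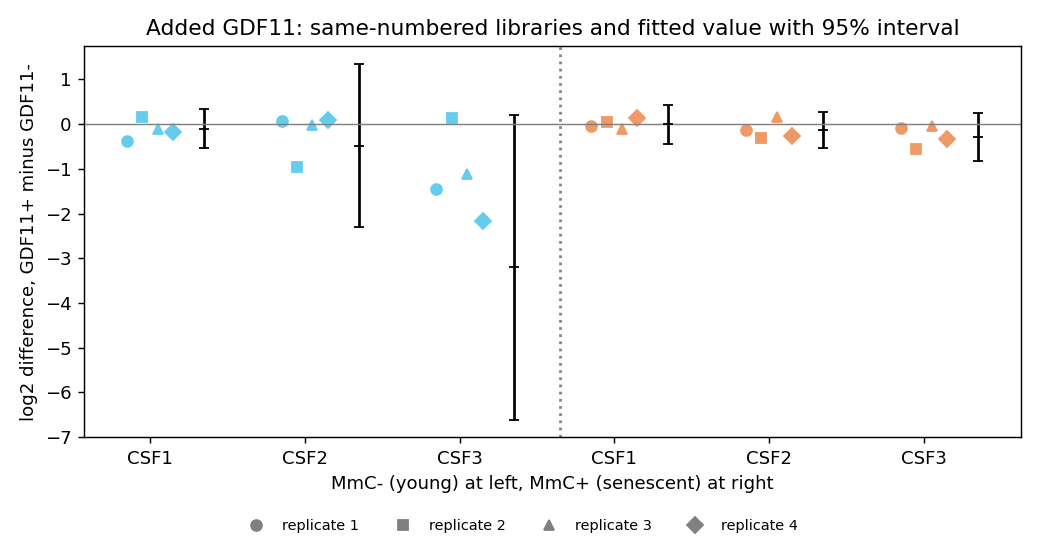
Difference in log2 CPM (prior count 2), GDF11+ minus GDF11-, of each pair of same-numbered libraries (markers) for CSF1, CSF2 and CSF3, in young MSCs at left of the dotted line and senescent MSCs at right. Black bars are the value fitted by edgeR with the replicate number as a block, without the added prior count, and its 95% interval. All 6 intervals include 0, and those of CSF2 and CSF3 are wide in young MSCs, where these genes had at most 8 counts per library.

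For each factor the 5 protein-coding genes with the most similar values were sought. Likeness was the root mean square difference (RMS) of log2 CPM centred on the mean of the gene over the 16 libraries. CSF1 was nearest to PLA2G15, a lysosomal phospholipase (RMS 0.133), followed by PIANP, TSPAN10, SVIL and NFASC (RMS up to 0.178). These genes shared the high value in replicate 1 of both MmC+ groups. PLA2G15 measured 87.0, 53.1, 50.6 and 52.2 CPM in senescent MSCs without GDF11 and 91.4, 50.8, 46.2 and 53.6 CPM with GDF11, with replicate 1 the highest in both.

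CSF2 was nearest to CCL20, a chemokine that attracts CCR6-bearing cells (RMS 0.712), followed by the neutrophil chemokine CXCL8, the epithelial transcription factor EHF, the cytokine IL6 and the elastase inhibitor PI3 (RMS up to 0.874). CSF3 was nearest to CCL20 as well (RMS 0.778), followed by the hyaluronan synthase HAS1, the stromelysin MMP3, the myeloid receptor TREM1 and PI3 (RMS up to 1.08). In CCL20, MmC+/GDF11- gave 2.94, 46.6, 46.9 and 51.4 CPM and MmC+/GDF11+ gave 2.90, 39.1, 49.0 and 43.6 CPM. Replicate 1 was the lowest in both, as in CSF2 and CSF3. For IL6 the values were 146, 905, 840 and 741 CPM in MmC+/GDF11-, again with replicate 1 the lowest. These lists lean on replicate 1 and on the contrast of MmC+ and MmC- libraries. Over the 12 libraries without replicate 1, 0 of the 5 genes of CSF1, 2 of the 5 of CSF2 and 2 of the 5 of CSF3 were again among the 5 nearest.

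**Figure D3:**
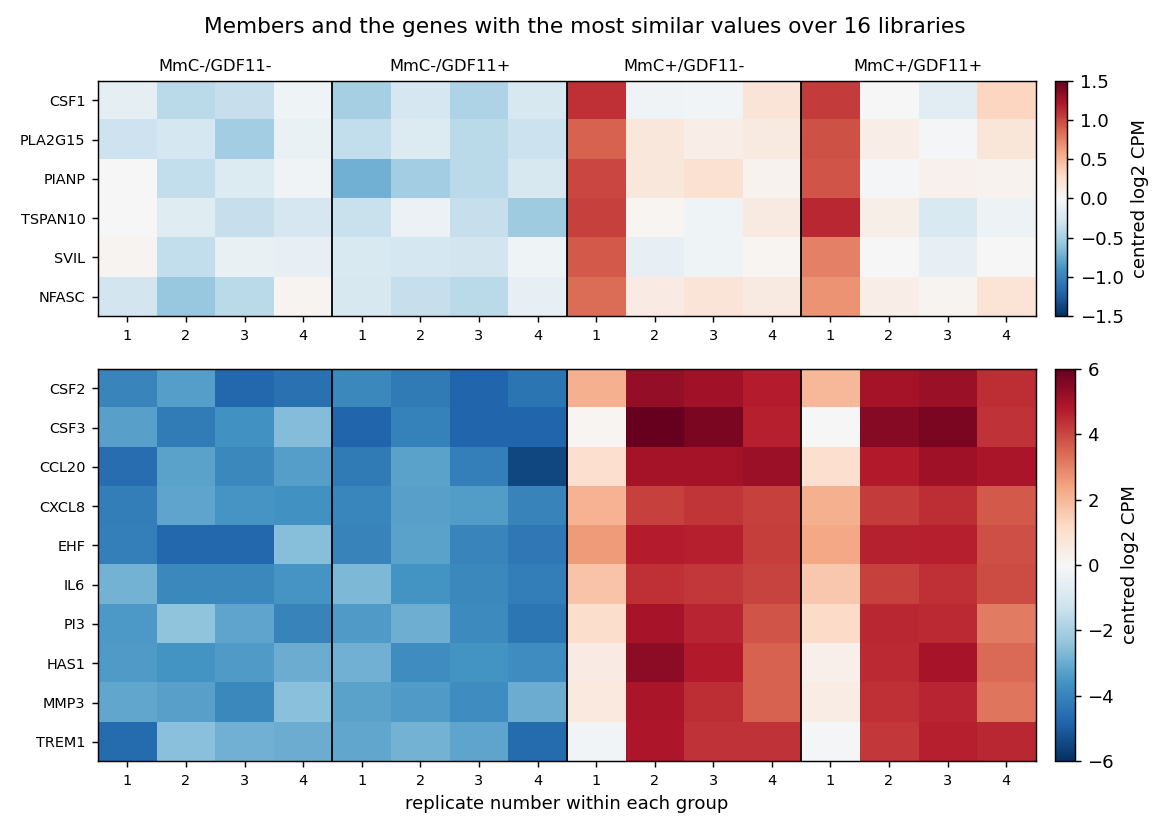
Log2 CPM, centred on the mean over 16 libraries, of CSF1 and its 5 nearest genes (top) and of CSF2, CSF3 and their nearest genes (bottom), with libraries in columns by group and replicate number. Red is above and blue below the mean of the gene, and the colour scales of the panels differ. In replicate 1 of both MmC+ groups the genes at the top are at their highest and those at the bottom are lower than in the other MmC+ replicates.

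Of the receptors, CSF2RB, the shared signalling subunit for CSF2, IL3 and IL5, rose with MmC, and CSF1R, the receptor for CSF1, showed no change past the test. The percentages of all 19103 genes called at an adjusted p of 0.05 were 45.3% for MmC without GDF11 (22.9% higher, 22.4% lower) and 46.7% for MmC with GDF11 (23.4% higher, 23.3% lower). CSF2RB measured 0.299, 0.279, 0.0917 and 0.347 CPM in young MSCs without GDF11 and 0.699, 1.04, 1.31 and 0.46 CPM in MmC+/GDF11-, groups that do not overlap. The log2 fold change was 1.76 (standard error 0.436, edgeR adjusted p = 0.00379). With GDF11 the groups overlapped and it was 1.13 (0.429, edgeR adjusted p = 0.0396). That call was lost with limma-voom (adjusted p = 0.0729) and when replicate 2 or 3 of MmC-/GDF11+ or of MmC+/GDF11+ was left out (up to 0.151). CSF1R measured 0.518 ± 0.185, 0.563 ± 0.164, 0.568 ± 0.276 and 0.508 ± 0.236 CPM (SD, n = 4) in young MSCs without and with GDF11 and senescent MSCs without and with GDF11, and its groups overlapped (edgeR adjusted p = 0.819 for MmC without GDF11).

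The binding subunits for CSF2 and CSF3 were near 0 and did not pass the filter. CSF2RA had 5, 7, 0 and 2 counts in the 4 groups in the same order. The gene lies in the pseudoautosomal region, where 2 identical copies can share reads, so its level is uncertain. CSF3R had 1, 1, 5 and 8 counts, at most 0.0345 CPM in a library. The receptor levels in these cells were thus all low beside those of CSF1, and counts of a few reads give little precision.

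Of 13 other haematopoietic growth factors, 8 were tested and 5 did not pass the filter. For MmC without GDF11, 4 rose and 3 fell, with a median log2 fold change of 0.78 against -0.011 for all genes. With GDF11, 5 rose and 2 fell. In each, 87.5% were called, against 45.3% and 46.7% of all genes. LIF, a pleiotropic cytokine of the IL6 family, rose by a log2 value of 6.39 (SE 0.743, edgeR adjusted p = 9.61e-06), from between 4.51 and 5.86 CPM to 57.8, 580, 515 and 526 CPM. IL11, a megakaryocyte factor of the same cytokine family, rose with 5.20 (0.998, edgeR adjusted p = 0.000672), from between 0.897 and 1.34 CPM to 1.98, 90.7, 54.7 and 25.7 CPM. Both were lowest in replicate 1 among the MmC+ libraries. TSLP, a factor for dendritic cells, rose with 2.58 and KITLG, the stem cell factor, with 0.74. IL7, a lymphoid factor, fell by 1.19 and CXCL12, which retains progenitors in their niche, fell by 1.10 on the log2 scale. FLT3LG, the FLT3 ligand, fell by 0.94, a call lost without replicate 2 of MmC-/GDF11- or of MmC+/GDF11- (adjusted p up to 0.0579, edgeR). IL34, the other ligand of CSF1R, had a log2 fold change of 0.82 (edgeR adjusted p = 0.0514, and 0.00139 with the replicate block) without GDF11 and 1.16 (edgeR adjusted p = 0.00957) with GDF11. KITLG, FLT3LG and IL34 were picked after their values were seen. FLT3LG shares 28.1% of its exonic bases with another annotated gene on the same strand, whose reads cannot be told apart from its own. IL7 shares 9.49% with a gene on the opposite strand, where this holds only if strand was not used in counting.

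Of 27 genes of the signalling that acts on CSF transcription, inducers and the NF-kappaB inhibitors NFKBIA and TNFAIP3 together, 26 were tested. For MmC without GDF11, 13 rose and 1 fell (53.8% called, against 45.3% of all genes), with a median log2 fold change of 0.48. With GDF11, 15 rose and 1 fell (61.5%, against 46.7% of all genes). The interleukin-1 genes led, with 5.65 on the log2 scale for IL1B (SE 0.517, edgeR adjusted p = 1.03e-06) and IL1A with 5.23 (0.48, edgeR adjusted p = 1.07e-06). NFATC2, a calcium-regulated transcription factor, had 4.01 (0.78, edgeR adjusted p = 0.000743). Without GDF11 it measured 0.638, 9.77, 7.73 and 8.16 CPM after MmC, and between 0.366 and 0.459 CPM in young MSCs. Both inhibitors were among the 13 that rose, TNFAIP3 with 2.48 and NFKBIA with 0.93, and RELB, an NF-kappaB subunit, rose with 1.52. The gene that fell was TNFRSF1A, the main receptor for TNF, by 0.84 on the log2 scale, named after its value was seen. Replicate 1 was the lowest library of both MmC+ groups in 16 of the 26 genes, as in CSF2 and CSF3, against 28.1% of all genes. TNF was listed at 0 in every library, but 100% of its exonic words occur also on alternate contigs, so this 0 says nothing on its level.

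Of 12 factors that bind AU-rich transcripts or control their stability, 4 rose and 7 fell for MmC without GDF11 (median log2 fold change -0.39). The share called was 91.7%, against 45.3% of all genes. With GDF11, 3 rose and 6 fell, in a comparison where 46.7% of all genes were called. ZC3H12A (Regnase-1), a nuclease that degrades inflammatory transcripts, rose from between 10.4 and 13.0 CPM to 65.8, 115, 110 and 82.1 CPM, a log2 fold change of 3.00 (standard error 0.194, edgeR adjusted p = 2.47e-08). HNRNPD (AUF1), which binds AU-rich elements, fell by 1.26, and ZFP36 (tristetraprolin), which triggers decay of such transcripts, fell by 0.79 on the log2 scale (edgeR adjusted p = 0.0127, and 0.0527 without replicate 1 of every group). ZFP36L1, of the same family, rose with 0.66, and TIA1, a translational silencer, fell by 0.66. The members of this list thus moved in both directions.

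Of 17 signal transducers of the receptors, 16 were tested. For MmC, 2 rose and 3 fell both without and with GDF11 (31.2% called, against 45.3% and 46.7% of all genes). With the replicate block, 8 were called without GDF11, but the block also called more of all 19103 genes (11066, against 8655). PTPN11, a phosphatase that transmits growth factor signals, rose with a log2 fold change of 0.43. The feedback inhibitors CISH and SOCS3 fell by 0.78 and 0.64, and the kinase TYK2 fell by 0.28 on the log2 scale. The TYK2 call was lost without replicate 4 of MmC-/GDF11- (edgeR adjusted p = 0.0504). Of 6 factors that process or shed CSF1, 4 were tested. For MmC without GDF11, 2 were called (50.0%, against 45.3% of all genes). With the replicate block 4 were called, against 11066 of all 19103 genes. RHBDF2, a partner of the sheddase ADAM17, had a log2 fold change of 1.00 (edgeR adjusted p = 0.0264), a call that was lost, up to 0.122, without replicate 3 or 4 of MmC-/GDF11- or replicate 1 of MmC+/GDF11-. The convertase FURIN had 0.55 (edgeR adjusted p = 0.000312).

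**Figure D4:**
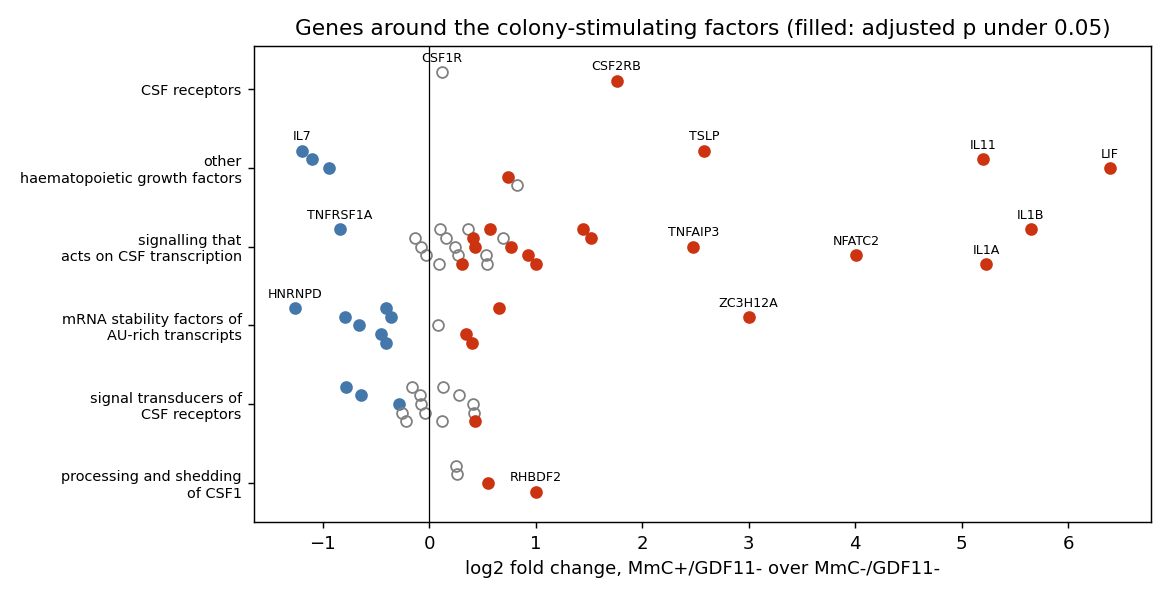
Log2 fold change for MmC without GDF11 (horizontal axis) of the tested and reported genes of 6 lists around the colony-stimulating factors (rows). Filled red points rose and filled blue points fell at an adjusted p under 0.05 in edgeR, open points did not pass, and the vertical offset within a row only separates points. LIF (6.39), IL1B (5.65), IL1A (5.23) and IL11 (5.20) stand at the right, and the mRNA stability factors lie on both sides of 0.

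Markers of other cells were also measured. Of 13 myeloid markers, 8 did not pass the filter. For MmC without GDF11, 4 rose (80.0% of those tested, against 45.3% of all genes), and with GDF11 5 rose (100%, against 46.7%). The sum of the 13 markers was between 1.88 and 2.96 CPM in the MmC- libraries and between 4.63 and 6.35 CPM in the MmC+ libraries. Of the defining markers, TYROBP had 0 counts in all MmC- libraries and at most 0.0203 CPM in an MmC+ library, SPI1 had at most 0.105 CPM, and AIF1 was listed at 0, a gene whose exonic words all occur on alternate contigs too. Without GDF11, CD14 measured 1.69 ± 0.388 CPM in young and 2.92 ± 1.28 in senescent MSCs (edgeR adjusted p = 0.0299, up to 0.141 with 1 library left out). PTPRC measured 0.378 ± 0.0891 and 0.583 ± 0.161 (SD, n = 4) and was not called (edgeR adjusted p = 0.06), with 58.8% of its words on alternate contigs. Besides CD14, the called myeloid markers for MmC without GDF11 were the scavenger receptor CD163, from 0.0602 to 1.17 CPM (edgeR adjusted p = 9.53e-06), the integrin ITGAM, from 0.0196 to 0.229 CPM (edgeR adjusted p = 0.000209), and the lysosomal protein CD68, from 0.148 to 0.281 CPM (edgeR adjusted p = 0.0415, up to 0.115 with 1 library left out). CD68 shares 81.6% of its exonic bases with a lncRNA on the same strand. Of 8 endothelial and epithelial markers, 7 were tested. For MmC without GDF11, 3 rose and 2 fell (71.4% called, against 45.3% of all genes). With GDF11, 2 rose and 2 fell (57.1%, against 46.7% of all genes). The endothelial markers PECAM1, from 5.96 to 14.4 CPM, KDR, from 0.0228 to 0.152 CPM, and VWF, from 0.939 to 1.48 CPM, rose (edgeR adjusted p = 0.00966, 0.00106 and 0.0272, the last up to 0.0811 with 1 library left out). The epithelial keratin KRT18 fell from 43.6 to 15.7 CPM and the endothelial cadherin CDH5 from 2.42 to 0.85 CPM (edgeR adjusted p = 0.000276 and 4.48e-06). For MmC with GDF11, KDR was not called (edgeR adjusted p = 0.131). The MmC-/GDF11- means of KDR and ITGAM were near the level of 3 counts. KRT18 made up most of the sum of the list in MmC-/GDF11-. The sum was between 45.3 and 67.4 CPM in MmC-/GDF11- and between 27.3 and 39.2 in MmC+/GDF11-. The part of these cells in the values of CSF2 and CSF3 was not tested. Of the 7 MSC markers, the 5′-nucleotidase NT5E and the integrin ITGB1 rose with log2 fold changes of 0.38 and 0.35. The growth factor receptor PDGFRB fell by 0.68. The share called was 42.9%, against 45.3% of all genes. With the replicate block 5 were called, against 11066 of all 19103 genes. The call of ITGB1 was lost, with an edgeR adjusted p of up to 0.0688, without replicate 2 of MmC-/GDF11- or replicate 1 or 3 of MmC+/GDF11-.

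Among the 108 tested genes of all lists and neighbours, edgeR called 0 for GDF11 in young MSCs, in senescent MSCs or in the interaction, and so did DESeq2 and limma-voom. At an unadjusted p under 0.05 the counts were 1, 0 and 1. Both were KDR, an endothelial receptor for VEGF, with a log2 fold change for GDF11 of 1.38 in young MSCs (edgeR adjusted p = 1.0) and an interaction of -1.74 (edgeR adjusted p = 1.0). The mean of KDR in MmC-/GDF11- was near the level of 3 counts.

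The genes beside each factor on the chromosome were compared, 5 protein-coding genes on each side. Of the 30 neighbours, 21 were tested. For MmC without GDF11, 10 rose and 3 fell (61.9% called, against 45.3% of all genes, median log2 fold change 0.09). With GDF11, 10 rose and 1 fell (52.4%, against 46.7% of all genes). With single libraries left out, between 9 and 13 were called for MmC without GDF11. No tested neighbour came near the values of CSF2 and CSF3. Those factors were chosen for their large difference under MmC, so this gap follows from the choice. On chromosome 5, IL3, whose start lies 13.1 kb before that of CSF2 and which encodes a related cytokine, had 1 count in all 16 libraries. On the other side, P4HA2, PDLIM4, SLC22A4 and SLC22A5 rose with log2 fold changes of 0.78, 0.78, 1.90 and 0.73, and FNIP1 on the side of IL3 with 0.55, a call lost without replicate 4 of MmC+/GDF11- (edgeR adjusted p = 0.0548). SLC22A4, a carnitine-family transporter, had the lowest adjusted p of the tested neighbours (edgeR, 1.1e-06) and rose from 7.42 to 27.8 CPM.

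On chromosome 17 the nearest neighbours of CSF3, PSMD3 and MED24, had log2 fold changes of -0.16 and -0.22 and were not called (edgeR adjusted p = 0.243 and 0.0851), although MED24 was called with the replicate block (edgeR adjusted p = 0.0171) and both were without replicate 1 of MmC-/GDF11- (0.0342 and 0.0367). Farther out ORMDL3 (0.63), GSDMB (0.85) and NR1D1 (0.94) rose, and THRA and MSL1 fell by 0.70 and 0.25. The calls of NR1D1 and MSL1 were lost when any of several libraries was left out (edgeR adjusted p up to 0.0891 and 0.0832). NR1D1 shares 18.0% of its exonic bases with THRA on the opposite strand. On chromosome 1 the tested genes next to CSF1 were GSTM3, with a log2 fold change of -0.19, and AHCYL1, with -0.14, and neither was called. UBL4B and SLC6A17 rose with 2.71 and 1.44 from low levels of 0.177 and 0.526 CPM. GSTM2 fell by 0.72 (edgeR adjusted p = 0.023, and up to 0.0777 with 1 library left out), but the GSTM genes are near-identical paralogs that can share reads, and GSTM2 overlaps GSTM1.

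**Figure D5:**
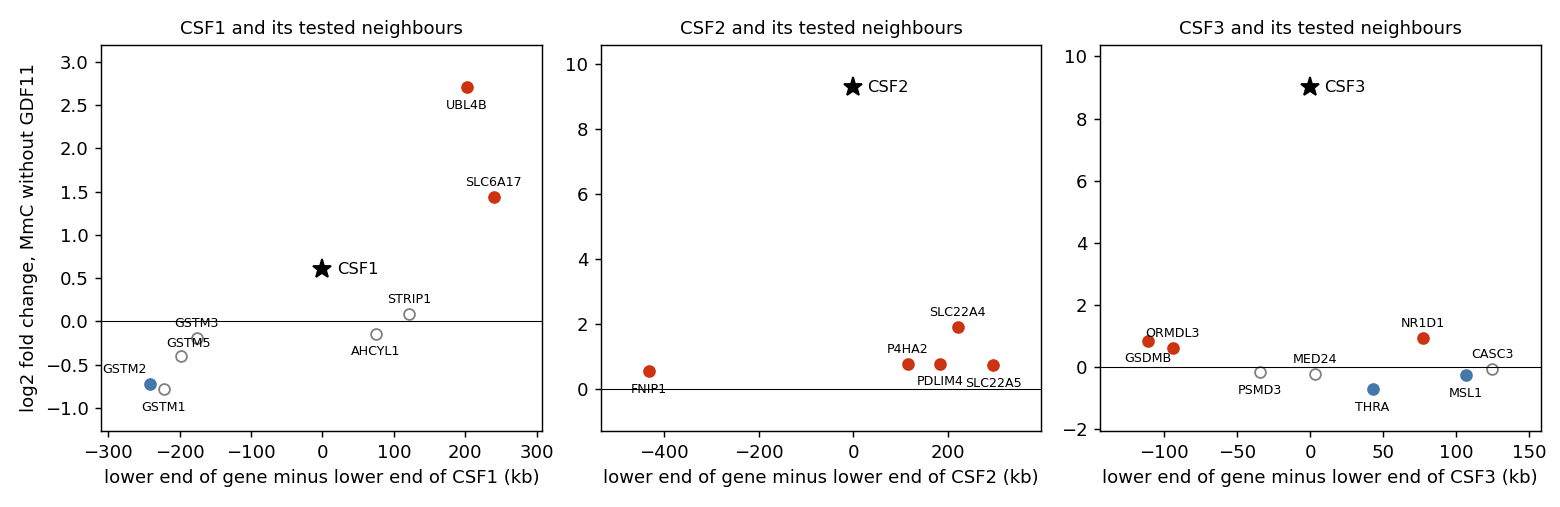
Log2 fold change for MmC without GDF11 (vertical axis, with a scale of its own in each panel) of the tested protein-coding neighbours of CSF1, CSF2 and CSF3 against their distance in kilobases. Filled red points rose and filled blue points fell at an adjusted p under 0.05 in edgeR, open points did not pass, and stars are the factors themselves, shown without a test. CSF2 (9.30) and CSF3 (9.02), which were chosen for their large difference under MmC, stand far above their neighbours, whose highest values are 1.90 and 0.94. CSF1 (0.61) lies below UBL4B (2.71) and SLC6A17 (1.44).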

How the data were processed

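RNA-seq libraries of 16 ASC52telo cultures, 4 groups of 4, were analysed. The authors deposited raw counts per gene, obtained with HISAT2 2.2.1 on hg38 and featureCounts 2.0.1 with GENCODE 38. The library kit keeps strand, but the strand and multi-mapping settings of the counting are not given in the sources used here. Coordinates and exon lengths came from GENCODE 44 (142 identifiers had no match).

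Counts were tested with edgeR 4.0.16 (limma 3.58.1, R 4.3.3). Genes were kept by filterByExpr (minimum count 10, minimum total 15), scaled by TMM and fitted over all 16 libraries with a robust quasi-likelihood model, and p-values were adjusted over all 19103 genes by the Benjamini-Hochberg method with a threshold of 0.05. Each MmC comparison shares a group of libraries with each GDF11 comparison. Total counts per library were between 71275337 and 144204979. No molecular identifiers were used. The 95% counting intervals of the ratios and the floor of 3 counts cover counting error only. The 95% intervals of fitted log2 fold changes cover the spread between libraries. Ratios are of count sums scaled by library size.

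The 3 genes and all gene lists were chosen with earlier results of these data known. Named were the 3 genes, their 4 receptors, from each other list at most the 5 genes with the largest change among those called for MmC without GDF11, PTPRC, CD14, SPI1 and TYROBP, the called genes among the 5 neighbours on each side, and the 5 protein-coding genes nearest by RMS of centred log2 CPM (prior count 2). Genes named outside this rule, and the promoter motifs, were chosen after values were seen.

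Replicate numbers are shared between groups. Over 11882 genes with a mean log2 CPM of at least 1, the deviations of same-numbered libraries from their group means had a lowest correlation of 0.289 for MmC without GDF11, 0.175 for GDF11 in young and 0.779 for GDF11 in senescent MSCs, and 0.00331 for MmC with GDF11. Same numbers were therefore taken as pairs in all but the last, but the main edgeR fit held no replicate term, so its p-values are unpaired. Pairs enter only the differences of same-numbered libraries, the exchange within pairs and the replicate block. The block was fitted to all groups at once. Alternatives were RLE size factors, no filter, the compared libraries only, a replicate block, DESeq2 1.42.0, limma-voom, each library left out, and replicate 1 of every group left out. The nearest genes and the ratios between the factors without replicate 1 were added after the data were seen. Only the main edgeR fit was run on simulated counts, for GDF11 in senescent MSCs and with changes in genes above a minimum level in young MSCs. The simulated libraries had no replicate effect and no MmC difference, so they do not cover CSF2, CSF3 or the spread of replicate 1. A gene that the rule names is not reported here.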

Additional observations from a re-analysis of the deposited data

Results flagged for a closer look

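CSF3 in MmC-/GDF11+ had 1 library apart from the others. Replicate 2 was at a log2 CPM of -4.81 and the other 3 libraries were at -5.49, their value for 0 counts. The gap is the whole range of the group, above the 95% critical value of Dixon for 4 values, and it is made by 1 count. Of 20 groups of 4 values that were checked this was the only one, and chance alone gives about 1 in 20.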

How the results depend on the processing

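The value for MmC kept its direction in CSF1, CSF2 and CSF3 under all alternatives run. With single libraries left out it was between 0.28 and 0.74 for CSF1, 9.03 and 9.93 for CSF2 and 8.57 and 9.70 for CSF3 without GDF11. No alternative called any of the 3 genes for GDF11 or the interaction, but the sign of values near 0 changed. CSF1 for GDF11 in senescent MSCs was -0.00297 and became 0.00129 with RLE size factors, 0.00134 with only the libraries compared, 0.00142 with DESeq2, 0.02 with limma-voom and 0.03 without replicate 1 of every group. With single libraries left out it was between -0.31 and 0.35, the CSF1 interaction between -0.19 and 0.47, CSF2 in young MSCs between -0.79 and 0.12, CSF2 in senescent MSCs between -0.47 and 0.23, the CSF2 interaction between -0.24 and 0.73, CSF3 in senescent MSCs between -0.71 and 0.15, and the CSF3 to CSF2 ratio between -0.74 and 0.45. Over all genes, 1 was called for GDF11 in young MSCs with DESeq2, and between 0 and 1 with single libraries left out. With the replicate block, 8 instead of 5 transducers, 4 instead of 2 processing factors and 5 instead of 3 MSC markers were called for MmC without GDF11, and with single libraries left out the last of these were between 1 and 3 and between 2 and 5. The block called 11066 genes for MmC without GDF11, against 8655. It changed no call of CSF1, CSF2 or CSF3. For MmC with GDF11, where the replicate numbers were not taken to pair the libraries, it gave CSF2RB an adjusted p of 0.0621 (edgeR). Of the 5 nearest genes, 0 for CSF1, 2 for CSF2 and 2 for CSF3 were shared without replicate 1. The cause of these shifts was not tested. At 0 to 8 counts per library, depth limits every value of CSF2 and CSF3 in young MSCs.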
